A study of Mus musculus with 9 samples.

Results

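Mitochondrial ribosomal proteins are the protein parts of the ribosome that works inside mitochondria, and their genes lie in the nucleus. The genes described here are all those whose only symbol in the platform's probe annotation starts with Mrpl (large subunit) or Mrps (small subunit) followed by a number. This rule used names and no measured value, and it gave 76 of the 18193 genes measured, 47 Mrpl genes and 29 Mrps genes. Where a gene had several probe sets, the one with the highest mean signal stood for it, and all 76 passed the filter on low signals.

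The study lowered Ebf1, a DNA-binding regulator known from B cell and fat cell development, in 3T3-L1 adipocytes, fat cells derived from 1 clonal mouse preadipocyte line. The 3 groups of 3 arrays each received lentivirus with a scrambled control hairpin, with shEbf1 hairpin 1 or with shEbf1 hairpin 2. Mature cells of all 3 groups, scrambled included, went through 3 to 4 rounds of infection and then grew in puromycin at 5 µg/ml for 8 days or longer. The titles call the arrays of a group repeats without naming separate cultures, so the spread behind each p-value may be technical rather than biological.

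The mitochondrial ribosome translates the few proteins encoded by mitochondrial DNA, all of them subunits of the respiratory chain and ATP synthase. Its large subunit joins amino acids and holds the exit tunnel, and its small subunit reads the messenger RNA. Many of its proteins have bacterial counterparts, while others are found only in mitochondria. Adipocytes build up mitochondria as they mature, and nuclear regulators of mitochondrial biogenesis such as NRF1, ERR alpha and PGC-1 coactivators are known to act on this system.

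Ebf1 itself checks the labels. Its log2 signal was 10.12, 10.15 and 10.31 on the scrambled arrays, 9.32, 9.54 and 9.45 with hairpin 1, and 8.90, 8.72 and 9.20 with hairpin 2. The 3 groups did not overlap, and Ebf1 was 1.69-fold lower with hairpin 1 (adjusted p = 0.000102) and 2.38-fold lower with hairpin 2 (adjusted p = 2.98e-07). Array medians were 6.31 to 6.38. Of 7 adipocyte markers measured, 6 passed the filter. The log2 of the summed signal of all 7 was 16.81 to 16.85 on all 9 arrays, a sum set mainly by the brightest, Adipoq, Fabp4 and Lpl. Of the 6 above the filter, only the lipid droplet gene Cidec passed the test against scrambled, with a fall of 0.25 with hairpin 2 (adjusted p = 0.00255). The adipokine gene Lep was below the filter. The log2 of the summed signal of 4 preadipocyte or fibroblast markers, of which 3 passed the filter, was 11.27 to 11.57 for scrambled, 12.16 to 12.38 for hairpin 1 and 12.49 to 12.59 for hairpin 2. Pdgfra and Thy1 rose with both hairpins (by 0.89 and 0.92, then by 1.18 and 1.96), whereas Dlk1 rose by 0.70 with hairpin 1 and fell by 0.83 with hairpin 2 (adjusted p = 0.00157). For 5 leukocyte markers the log2 of the summed signal was 7.90 to 7.96, 7.88 to 8.09 and 8.32 to 8.41, and for 3 muscle markers 8.78 to 8.94, 9.16 to 9.44 and 8.91 to 9.02. Behind these sums, Cd68 rose by 1.18 with hairpin 2 while Csf1r did not pass, and with hairpin 1 Acta1 rose by 0.69 and Ckm fell by 0.38 (adjusted p = 0.0186). The defining markers Ptprc, Adgre1, Itgam, Pecam1, Cdh5 and Myog were below the filter. The part of these marker shifts in the results on ribosomal protein genes was not tested, and in these bulk RNA samples fewer cells of a type and less RNA per cell cannot be told apart.

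The promoters of 6 members are shown because these genes set the hairpins apart or moved most. Mrpl34 was the member that rose most with both hairpins, Mrpl45, Mrpl11 and Mrpl40 fell with hairpin 2, Mrpl43 passed the test in opposite directions and Mrps12 was the member highest in hairpin 2 relative to hairpin 1. Sequences are from RefSeq on build GRCm38.p6, read 5′ to 3′ on the gene's strand and ending at the base before the annotated start. The stretches lie at chr8:71464776-71464925 (plus strand) for Mrpl34, chr11:97315566-97315715 (plus) for Mrpl45, chr19:4962156-4962305 (plus) for Mrpl11, chr16:18876638-18876749 (minus) for Mrpl40, chr19:45006443-45006557 (minus) for Mrpl43 and chr7:28741822-28741967 (minus) for Mrps12. The last 3 are the whole gap to the start of an opposite-strand neighbour, Hira, Twnk and Sars2 respectively. Capitals mark a match to CCGGAAGT, a core bound by ETS factors such as GABP.
Mrpl34: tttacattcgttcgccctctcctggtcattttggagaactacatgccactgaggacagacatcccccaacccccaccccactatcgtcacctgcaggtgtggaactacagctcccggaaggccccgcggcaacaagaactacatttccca
Mrpl45: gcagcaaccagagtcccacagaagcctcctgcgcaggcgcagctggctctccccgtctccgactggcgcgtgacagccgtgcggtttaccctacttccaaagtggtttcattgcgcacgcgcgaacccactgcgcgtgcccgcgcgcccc
Mrpl11: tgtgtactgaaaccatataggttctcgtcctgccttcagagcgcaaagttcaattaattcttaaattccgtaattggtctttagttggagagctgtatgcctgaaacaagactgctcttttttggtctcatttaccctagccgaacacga
Mrpl40: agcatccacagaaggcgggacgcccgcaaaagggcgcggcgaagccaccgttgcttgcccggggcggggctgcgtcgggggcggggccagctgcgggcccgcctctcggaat
Mrpl43: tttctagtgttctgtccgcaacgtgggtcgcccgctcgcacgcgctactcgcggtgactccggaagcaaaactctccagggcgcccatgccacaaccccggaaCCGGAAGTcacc
Mrps12: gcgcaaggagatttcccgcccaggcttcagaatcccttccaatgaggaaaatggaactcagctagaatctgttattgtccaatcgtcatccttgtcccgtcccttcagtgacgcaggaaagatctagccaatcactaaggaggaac

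Of the 76 members, 67 had a promoter in the RefSeq table, a window from 250 bases before the start to 50 after it. Each motif was searched in exact letters on both strands, and its share is set beside that among the 27025 genes with such a window. The EBF motif, the palindrome TCCCN followed by its reverse complement that Ebf1 is known to bind, was in the window of 1 member, Mrpl27 (1.49% of members against 1.06% of all). The opposite-strand gene Eme1 starts 48 bases from the start of Mrpl27, and the match lies beyond that start, on the side of Eme1. The match starts 231 bases before the start of Mrpl27, in chr11:94653550-94653579 (plus strand), shown with the motif in capitals.
Mrpl27: ccctggtcccTCCCTAGGGAccttcgtgtg
The ETS core CCGGAAGT was in 12 members (17.9% against 4.31%), among them Mrpl3, Mrpl27, Mrpl43 and Mrpl48. The YY1 core AAGATGGCG was in 8 members (11.9% against 1.64%), among them Mrpl35, Mrpl42 and Mrps27. The NRF1 palindrome, GCGCA followed by its reverse complement, was in 3 members, Mrpl9, Mrpl32 and Mrpl39 (4.48% against 1.07%). These matches describe letters in a window and are no evidence of binding.

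Mean log2 signals of the members over the 9 arrays ran from 8.80 to 13.6, all above the filter at 5.72. The median within-group SD of members was 0.120 for hairpin 1, 0.0472 among scrambled arrays and 0.0543 for hairpin 2, and over all genes tested it was likewise highest for hairpin 1 (0.118, 0.066 and 0.0929 in the same order). The median of the 76 members, each taken relative to its own scrambled mean, was -0.02, -0.02 and 0.04 on the scrambled arrays, 0.04, 0.24 and 0.19 with hairpin 1, and -0.01, 0.03 and 0.01 with hairpin 2. Hairpin 1 repeat 1 stood below the other 2 hairpin 1 arrays, with 46 members above their scrambled mean against 68 and 62. It was also the lowest of the hairpin 1 arrays in the median of all genes tested, which was 0.01, 0.12 and 0.08 on these 3 arrays. The hairpin 2 arrays, with 36, 44 and 39 members above the scrambled mean, were centred near scrambled.

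**Figure D1:**
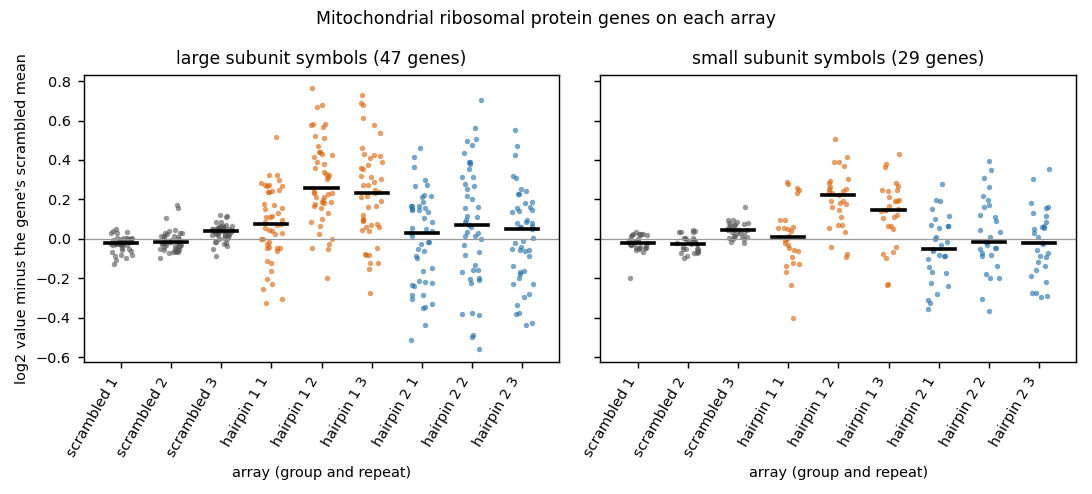
Each point is 1 gene on 1 array, as its log2 value minus its mean on the 3 scrambled arrays, for 47 Mrpl genes and 29 Mrps genes in separate panels. The members lie above 0 on hairpin 1 repeats 2 and 3 (family medians 0.24 and 0.19), less so on hairpin 1 repeat 1 (0.04), and around 0 on the hairpin 2 arrays.

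With hairpin 1, members of the mitochondrial ribosome were mostly higher than with the scrambled control. A total of 26 of 76 (34.2%) rose and 1 (1.32%), Mrpl27, fell, while 49 did not pass the test. Among all genes tested, 23.7% rose and 9.23% fell (limma, Benjamini-Hochberg adjusted p below 0.05 over 12735 genes). The median difference of members was 0.16 (1.12-fold) against 0.07 for all genes, and the range was -0.27 to 0.67. Above zero lay 62 of the 76 members and 8035 of the 12735 genes tested. Without hairpin 1 repeat 1 the rise covered 47 members, where 32.1% of all genes rose. The count that fell was 3 without hairpin 1 repeat 2 (8.65% of all genes) and 2 without hairpin 2 repeat 2 (9.38%). With quantile normalization 23 members rose and 4 fell, and the background was 19.3% and 13.4%. The median member stood at the 84.6th percentile of mean signal among genes tested. With the filter at the 50th percentile, which keeps brighter genes, 27 members rose and 2 fell. The background was then 30.5% and 11.9%, with a median of 0.0963 for all genes.

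Mrpl34, a small large-subunit protein with a bacterial counterpart, had log2 signals of 11.38, 11.44 and 11.41 with scrambled, 11.93, 12.18 and 12.14 with hairpin 1, and 11.87, 12.11 and 11.88 with hairpin 2. Every hairpin array was above every scrambled array, and the hairpin groups overlapped each other. Mrpl34 rose 1.59-fold with hairpin 1 (log2 difference 0.67, SE 0.0789, adjusted p = 9.51e-06) and 1.46-fold with hairpin 2 (0.55, adjusted p = 4.8e-05). Mrpl20, whose bacterial counterpart binds ribosomal RNA early in assembly, had 11.54, 11.55 and 11.60 with scrambled, 11.86, 12.13 and 12.18 with hairpin 1, and 11.86, 12.13 and 11.87 with hairpin 2. Its groups lay in the same order, with a rise of 0.49 (SE 0.0858, adjusted p = 0.000395) for hairpin 1 and 0.39 (adjusted p = 0.00203) for hairpin 2. For neither gene did the difference between the hairpins pass the test (-0.13 with adjusted p = 0.264 for Mrpl34, -0.10 with adjusted p = 0.42 for Mrpl20). For both genes it passed without hairpin 1 repeat 1 (adjusted p = 0.0377 for Mrpl34 and 0.0484 for Mrpl20). It also passed for both with array weights (0.00725 and 0.00521).

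Mrpl55 and Mrpl4 rose with hairpin 1 and were lower with hairpin 2 than with hairpin 1. Mrpl55 had log2 signals of 8.98, 8.99 and 9.04 with scrambled, 9.29, 9.68 and 9.68 with hairpin 1, and 9.17, 9.28 and 9.14 with hairpin 2. The 3 groups of Mrpl55 did not overlap, although the lowest hairpin 1 array lay next to the highest hairpin 2 array. The rise with hairpin 1 was 0.55 (SE 0.105, adjusted p = 0.000855), the difference with hairpin 2 was 0.19 (adjusted p = 0.178), and hairpin 2 was 0.35 below hairpin 1 (adjusted p = 0.0185). Mrpl4, which lines the tunnel through which the new protein leaves, had 10.88, 11.03 and 11.12 with scrambled, 11.28, 11.59 and 11.70 with hairpin 1, and 11.17, 11.28 and 11.10 with hairpin 2. Only the scrambled and hairpin 1 groups of Mrpl4 were fully apart. Its differences were 0.51 (SE 0.0993, adjusted p = 0.000968), 0.17 (adjusted p = 0.206) and, between the hairpins, -0.34 (adjusted p = 0.0178). For both genes the call between the hairpins was lost without any one of hairpin 1 repeats 2 and 3 and hairpin 2 repeats 1 and 3, with adjusted p from 0.0609 to 0.0926 for Mrpl55 and from 0.0551 to 0.10 for Mrpl4.

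Other members rose with both hairpins as well. Mrpl17, a protein near the exit of the tunnel, had log2 signals of 12.22, 12.22 and 12.29 with scrambled, 12.42, 12.69 and 12.67 with hairpin 1, and 12.61, 12.68 and 12.67 with hairpin 2. It rose by 0.35 (SE 0.0658, adjusted p = 0.000761) and 0.41 (adjusted p = 0.000136), both lost when its probe sets were averaged (adjusted p = 0.481 and 0.339). Mrpl49 and Mrpl50, both large-subunit proteins found only in mitochondria, rose as well: Mrpl49 by 0.49 (adjusted p = 0.000761) and 0.33 (adjusted p = 0.0119), Mrpl50 by 0.44 (adjusted p = 0.00137) and 0.45 (adjusted p = 0.000847). With its probe sets averaged, Mrpl50 was at -0.24 with hairpin 1 (adjusted p = 0.0993) and 0.14 with hairpin 2 (adjusted p = 0.369), so neither call held. In the small subunit, Mrps21 had 11.47, 11.39 and 11.48 with scrambled, 11.68, 11.86 and 11.81 with hairpin 1, and 11.72, 11.84 and 11.75 with hairpin 2. All hairpin arrays exceeded all scrambled arrays of Mrps21, with rises of 0.34 (SE 0.0665, adjusted p = 0.00111) and 0.33 (adjusted p = 0.00111); the second was lost with averaged probe sets (adjusted p = 0.0689). Mrps6, whose bacterial counterpart lies on the platform of the small subunit, rose from 13.42 ± 0.04 (SD, n = 3) to 13.70 ± 0.02 with hairpin 1 (adjusted p = 6e-05) and 13.60 ± 0.04 with hairpin 2 (adjusted p = 0.00205). Mrpl51, a large-subunit protein found only in mitochondria, did not pass in either comparison and had 13.14 to 13.17 with scrambled against 13.11 to 13.27 with hairpin 1.

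Mrpl27 was the member that fell with both hairpins. The protein sits near the peptidyl transferase centre in bacteria, and its window holds the EBF match shown above. Its log2 signals were 13.00, 13.00 and 13.03 with scrambled, 12.69, 12.81 and 12.73 with hairpin 1, and 12.77, 12.79 and 12.78 with hairpin 2. All 6 hairpin arrays were below all scrambled arrays. Mrpl27 fell by 0.27 (SE 0.0463, adjusted p = 0.000382, 1.20-fold) with hairpin 1 and by 0.23 (adjusted p = 0.000946, 1.17-fold) with hairpin 2. The small-subunit gene Mrps27, which encodes a pentatricopeptide repeat protein, went the other way with hairpin 1: 8.68, 8.91 and 9.03 with scrambled against 9.15, 9.38 and 9.31 (rise of 0.40, SE 0.102, adjusted p = 0.00636), a call lost without scrambled repeat 1 (0.31, adjusted p = 0.0525). With hairpin 2 it had 8.94, 9.04 and 9.06, overlapping scrambled (adjusted p = 0.341).

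With hairpin 2 members moved in both directions, as did all genes tested. Of 76 members 15 (19.7%) rose, 16 (21.1%) fell and 45 did not pass, where 21.5% of all genes tested rose and 13.3% fell. The median difference was 0.02 for members and 0.02 for all genes, with a range of -0.48 to 0.55 for members. With the filter at the 50th percentile again 15 members rose and 16 fell, where 26.9% and 17.0% of all genes did. The count that rose was 8 without scrambled repeat 1 and 9 without either scrambled repeat 2 or hairpin 2 repeat 2. The count that fell was 10 without any one of scrambled repeats 2 and 3 and hairpin 2 repeats 1 and 3 (10.5% to 12.9% of all genes). Both hairpin comparisons use the same 3 scrambled arrays, so they are not independent.

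The members that fell most with hairpin 2 were all large-subunit genes except Mrps33 among the lowest 6. Mrpl11, at the base of the stalk that recruits translation factors, had log2 signals of 12.09, 12.06 and 12.14 with scrambled, 12.10, 12.23 and 12.16 with hairpin 1, and 11.58, 11.61 and 11.66 with hairpin 2. The scrambled and hairpin 1 groups overlapped, and all hairpin 2 arrays lay below both. Mrpl11 fell by 0.48 with hairpin 2 (SE 0.0581, adjusted p = 7.99e-06, 1.39-fold) and differed by 0.06 with hairpin 1 (adjusted p = 0.435). Of its 3 other probe sets, 2 also fell with hairpin 2, at -0.47 and -0.31, and the dimmest gave -0.08 (adjusted p = 0.553). Mrpl45, which ties the ribosome to the inner membrane at the tunnel exit, had 11.28, 11.27 and 11.35 with scrambled, 11.34, 11.53 and 11.46 with hairpin 1, and 10.86, 10.74 and 10.87 with hairpin 2. Only the hairpin 2 arrays stood apart, with a fall of 0.47 (SE 0.0722, adjusted p = 7.93e-05) against a difference of 0.14 with hairpin 1 (adjusted p = 0.142).

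Mrpl40, a protein of the central protuberance at the interface of the subunits, had log2 signals of 11.48, 11.44 and 11.51 with scrambled, 11.41, 11.83 and 11.71 with hairpin 1, and 11.19, 10.98 and 11.10 with hairpin 2. It fell by 0.39 with hairpin 2 (SE 0.093, adjusted p = 0.00377), and its hairpin 1 arrays spread on both sides of scrambled (0.18, adjusted p = 0.159; 0.30 and 0.00354 without hairpin 1 repeat 1). Mrpl44, an exit-site protein with a ribonuclease III fold, had 10.85, 10.93 and 10.86 with scrambled, 10.86, 11.07 and 10.95 with hairpin 1, and 10.55, 10.49 and 10.51 with hairpin 2. Hairpin 2 again lay below both other groups, with a fall of 0.36 (SE 0.0739, adjusted p = 0.00106). Mrpl35 fell by 0.35 (adjusted p = 0.000834; 0.063 with its probe sets averaged) and Mrps33 by 0.33 (adjusted p = 0.00123). Mrpl1, the protein of the stalk near which spent transfer RNA leaves, had 8.85, 9.11 and 8.85 with scrambled and 8.59, 8.56 and 8.71 with hairpin 2. Its fall of 0.32 (adjusted p = 0.0147) was lost without scrambled repeat 2 (adjusted p = 0.108), without hairpin 2 repeat 2 (0.0542) and with its probe sets averaged (0.62).

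**Figure D2:**
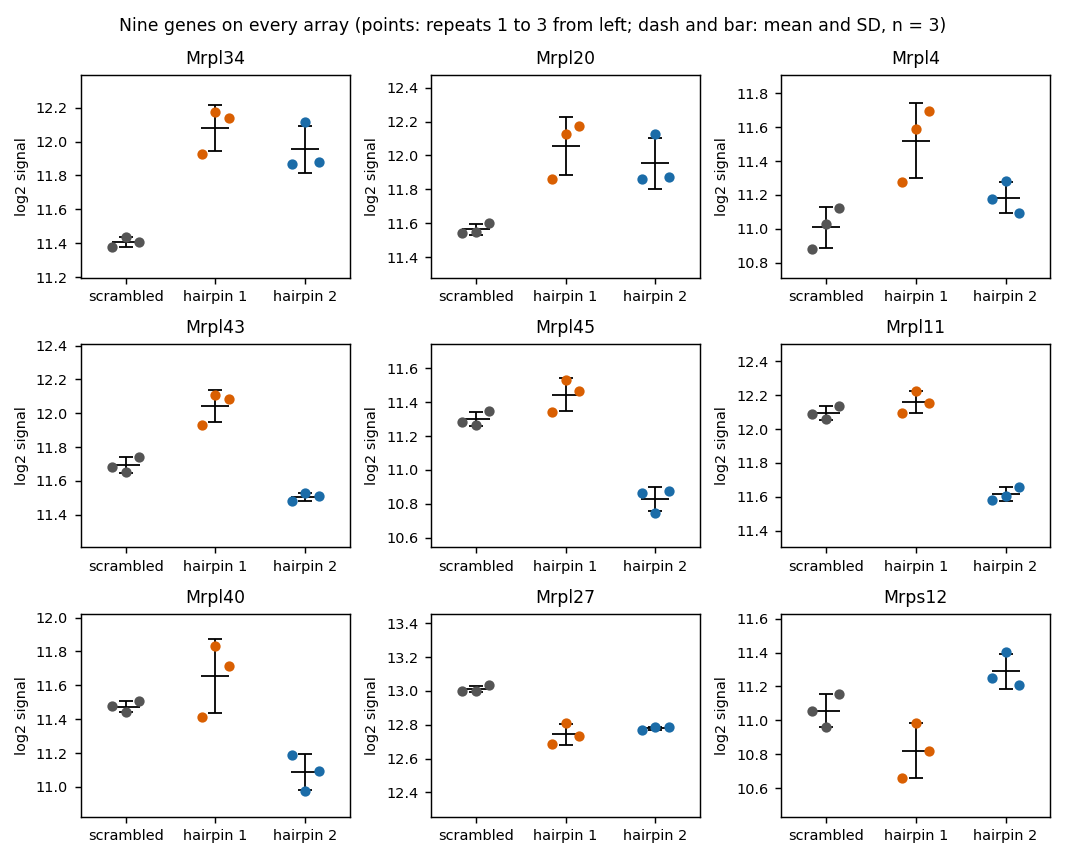
Log2 signal of 9 genes on each of the 9 arrays; points are the repeats of scrambled, hairpin 1 and hairpin 2 from left to right, and the dash and bar give the mean and SD (n = 3). Mrpl34 and Mrpl20 are higher with both hairpins, Mrpl45, Mrpl11 and Mrpl40 are lower with hairpin 2 alone, Mrpl27 is lower with both, and Mrpl43 is higher with hairpin 1 and lower with hairpin 2.

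The hairpins were also compared with each other directly. The difference itself uses no scrambled array, but its SE and p rest on a spread estimated from all groups, scrambled included. Hairpin 2 was below hairpin 1 for 30 of 76 members (39.5%) and above it for 2 (2.63%), Mrps12 and Mrpl57, while 44 did not pass. Among all genes tested, 17.4% were lower and 11.6% higher with hairpin 2. The median difference was -0.15 for members and -0.04 for all genes. Below zero lay 62 of the 76 members and 7304 of the 12735 genes tested. The lower count was 45 without hairpin 1 repeat 1 (24.6% of all genes), 17 without hairpin 1 repeat 2 (12.7%) and 20 without hairpin 2 repeat 1 (12.9%). The higher count was 1 without hairpin 1 repeat 1, hairpin 2 repeat 2 or hairpin 2 repeat 3. With quantile normalization the member counts were again 30 lower and 2 higher, where 16.0% and 15.4% of all genes were. With the filter at the 50th percentile they were 32 lower and 2 higher, where 23.3% and 14.8% of all genes were.

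Mrpl45 had the largest gap of any member between the hairpins, 0.62 lower with hairpin 2 (SE 0.0722, adjusted p = 1.03e-05, 1.54-fold). Mrpl40 was 0.57 lower (adjusted p = 0.000262), Mrpl11 0.54 lower (adjusted p = 4.47e-06) and Mrpl44 0.44 lower (adjusted p = 0.000294). Mrpl43, a large-subunit protein found only in mitochondria, passed with both hairpins in opposite directions, which no other member did in this fit. Its log2 signals were 11.68, 11.66 and 11.74 with scrambled, 11.93, 12.11 and 12.08 with hairpin 1, and 11.48, 11.53 and 11.51 with hairpin 2, so no groups overlapped. It rose by 0.35 with hairpin 1 (SE 0.0634, adjusted p = 0.000577) and fell by 0.19 with hairpin 2 (adjusted p = 0.0316), with 0.53 between the hairpins (adjusted p = 1.23e-05). The fall with hairpin 2 was lost without any one of the scrambled or hairpin 2 arrays (adjusted p from 0.0542 to 0.131) and without the variance trend (0.0618).

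Mrps12, the protein at the decoding site, ran opposite to most of the family. Its log2 signals were 11.05, 10.96 and 11.15 with scrambled, 10.66, 10.98 and 10.82 with hairpin 1, and 11.25, 11.40 and 11.21 with hairpin 2. Hairpin 2 lay above both other groups, while scrambled and hairpin 1 overlapped. The difference between the hairpins was 0.47 (SE 0.089, adjusted p = 0.000923), and those from scrambled were -0.24 (adjusted p = 0.0528) and 0.23 (adjusted p = 0.0548). Mrps12 passed in both directions with quantile normalization (-0.31, adjusted p = 0.00763, and 0.21, adjusted p = 0.0462) and with array weights (adjusted p = 0.00184 and 0.0158). It also passed with hairpin 1 with equal array medians (adjusted p = 0.0211) and without hairpin 1 repeat 2 (0.0151), and with hairpin 2 without hairpin 1 repeat 1 (0.0188). Mrpl57 had 11.31, 11.37 and 11.39 with scrambled, 11.15, 11.42 and 11.45 with hairpin 1, and 11.51, 11.74 and 11.60 with hairpin 2. Its rise of 0.26 with hairpin 2 (adjusted p = 0.0231) went against its other, dimmer probe set, at -0.32 (adjusted p = 0.0278). That rise was lost without scrambled repeat 1 (adjusted p = 0.0913), scrambled repeat 2 (0.0566), hairpin 2 repeat 2 (0.118) or hairpin 2 repeat 3 (0.0515). Mrps36 had 11.19, 11.27 and 11.19 with hairpin 2 against 11.45, 11.65 and 11.72 with hairpin 1 (0.39 lower, adjusted p = 0.00107), and fell from scrambled by 0.26 with hairpin 2 (adjusted p = 0.0141). The fall from scrambled was lost without scrambled repeat 3 (adjusted p = 0.0744), hairpin 2 repeat 1 (0.0512) or hairpin 2 repeat 3 (0.0521). Despite its symbol its protein is now assigned to the 2-oxoglutarate dehydrogenase complex.

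**Figure D3:**
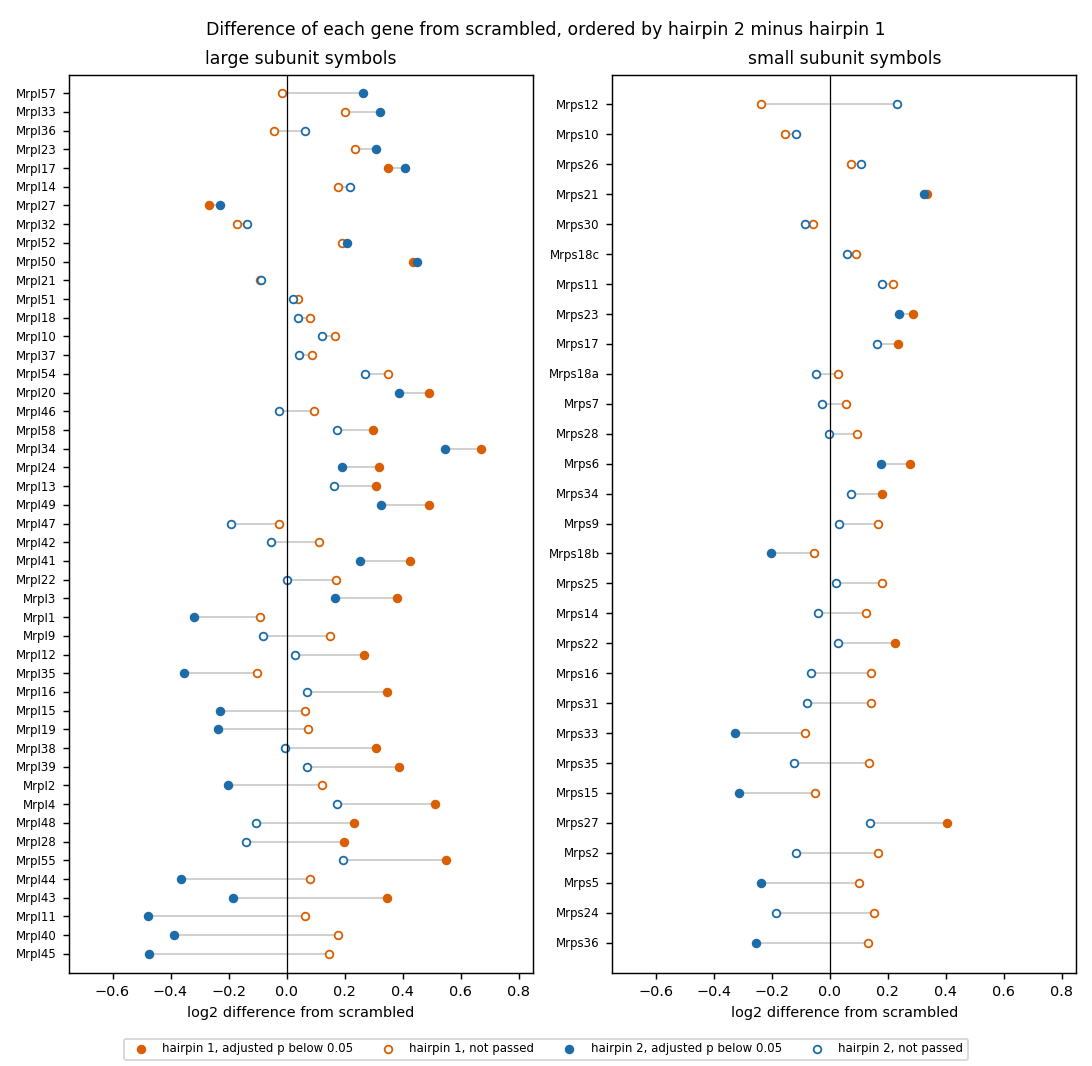
Log2 difference from scrambled of each of the 76 genes with hairpin 1 and hairpin 2, Mrpl genes in one panel and Mrps genes in the other, ordered by the difference between hairpins; filled points passed at adjusted p below 0.05. Most genes have their hairpin 2 point to the left of their hairpin 1 point (62 of 76), with Mrpl45 at one end and Mrps12 at the other. Of all 12735 genes tested, 7304 were lower with hairpin 2 than with hairpin 1.

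Some members were listed by their place in the ribosome, and these lists are not complete. Around the tunnel exit, all 7 members measured had positive differences with hairpin 1, and Mrpl17, Mrpl24 and Mrpl39 passed. With hairpin 2 the same 7 split, with Mrpl17 (0.41), Mrpl23 (0.31) and Mrpl24 (0.19) higher, Mrpl44 (-0.36) and Mrpl45 (-0.47) lower, and Mrpl22 (0.00) and Mrpl39 (0.07) not passing. Of the 4 proteins of the factor-binding stalk and its base, Mrpl12 rose by 0.27 with hairpin 1 and Mrpl11 fell by 0.48 with hairpin 2, whereas Mrpl10 and Mrpl54 did not pass in any comparison. Of the 6 members listed for the central protuberance, Mrpl38 (0.31) and Mrpl48 (0.23) rose and Mrpl27 (-0.27) fell with hairpin 1. Of the same 6, Mrpl40 (-0.39) and Mrpl27 (-0.23) fell with hairpin 2. Mrpl58, a peptidyl-tRNA hydrolase built into the large subunit that frees stalled chains, rose by 0.30 with hairpin 1 (adjusted p = 0.0133) and had 0.17 with hairpin 2, which did not pass. Of the paralogs Mrps18a, Mrps18b and Mrps18c, the only call was a fall of 0.20 for Mrps18b with hairpin 2 (adjusted p = 0.0379), lost without any one scrambled or hairpin 2 array (adjusted p from 0.0631 to 0.138). With hairpin 1, Mrpl12 and Mrpl58 lost their calls without scrambled repeat 2 or hairpin 1 repeat 2, Mrpl38 without scrambled repeats 1 or 2 or hairpin 1 repeats 2 or 3, and Mrpl48 without any of 6 arrays and under both other scalings. The adjusted p of these lost calls lay between 0.0512 and 0.149 for Mrpl48 without 1 array, and at 0.0652 and 0.0636 for Mrpl58. With hairpin 2, Mrpl23 lost its call without scrambled repeats 1 or 2 or hairpin 2 repeat 2, and Mrpl24 without scrambled repeat 2 or hairpin 2 repeat 3.

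By origin, the 46 members listed with a bacterial counterpart were compared with the 29 not listed with one, Mrps36 set aside. The 29 include Mrpl47, so they are not all proteins found only in mitochondria. With hairpin 1, 14 of the 46 rose and Mrpl27 fell (median 0.15), and 12 of the 29 rose (median 0.18). With hairpin 2, 9 rose and 10 fell in the first group (median 0.01), and 6 rose and 5 fell in the second (median 0.02). Hairpin 2 was below hairpin 1 for 18 of 46 and 11 of 29. The shares of all genes tested were 23.7% higher and 9.23% lower with hairpin 1, and 21.5% and 13.3% with hairpin 2. Between the hairpins, 17.4% of all genes were lower with hairpin 2. The difference between these groups was not tested.

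The remaining calls were spread over both subunits. With hairpin 1, Mrpl3, Mrpl12, Mrpl13, Mrpl16, Mrpl24, Mrpl28, Mrpl38, Mrpl39, Mrpl41, Mrpl48, Mrps17, Mrps22, Mrps23 and Mrps34 rose besides the genes described above. With hairpin 2, Mrpl3, Mrpl33, Mrpl41, Mrpl52 and Mrps23 also rose, and Mrpl2, Mrpl15, Mrpl19, Mrps5 and Mrps15 also fell. No other probe set of Mrpl15, Mrpl19 or Mrps5 above the filter passed the test with hairpin 2, and a bright one of Mrpl15 gave 0.07 (adjusted p = 0.539). With hairpin 1 the probe set used for Mrpl15 gave 0.06. Others of Mrpl15 rose by 0.31 (adjusted p = 0.0063), 0.25 (0.0169), 0.33 (0.0468) and 0.58 (0.000801), and those at 0.12 and 0.04 did not pass. For Mrps15 a bright other probe set gave -0.03 (adjusted p = 0.817) and a dimmer one -0.30 (adjusted p = 0.0383). Mrpl3, which contacts the peptidyl transferase centre, rose by 0.38 with hairpin 1 (adjusted p = 0.000133) and by 0.17 with hairpin 2 (adjusted p = 0.038), and hairpin 2 was 0.22 below hairpin 1 (adjusted p = 0.0117). The rise of Mrpl3 with hairpin 2 was lost without any one scrambled or hairpin 2 array (adjusted p from 0.0696 to 0.136), and its gap between hairpins without hairpin 1 repeat 3 (0.0578). A total of 22 members passed in none of the 3 comparisons, namely Mrpl10, Mrpl14, Mrpl18, Mrpl21, Mrpl22, Mrpl32, Mrpl36, Mrpl37, Mrpl46, Mrpl47, Mrpl51, Mrpl54, Mrps7, Mrps9, Mrps10, Mrps11, Mrps18a, Mrps18c, Mrps25, Mrps26, Mrps28 and Mrps30. A p that misses the threshold does not show that these genes were unchanged.

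The median difference from scrambled was higher for large-subunit than for small-subunit genes with both hairpins. With hairpin 1, 19 of 47 Mrpl genes rose and 1 fell (median 0.18), and 7 of 29 Mrps genes rose and 0 fell (median 0.14) in limma; at an unadjusted p under 0.05, 2 Mrps genes were lower. With hairpin 2, 12 Mrpl genes rose and 11 fell (median 0.04), and 3 Mrps genes rose and 5 fell (median -0.03). Hairpin 2 was below hairpin 1 for 20 Mrpl and 10 Mrps genes, and above it for Mrpl57 and Mrps12. The shares of all genes tested were 23.7% higher and 9.23% lower with hairpin 1, and 21.5% and 13.3% with hairpin 2. Between the hairpins, 17.4% of all genes were lower and 11.6% higher with hairpin 2. The median of Mrpl genes minus that of Mrps genes was -0.00, 0.01 and -0.01 on the scrambled arrays, 0.07, 0.04 and 0.09 with hairpin 1, and 0.08, 0.09 and 0.07 with hairpin 2. All 6 hairpin arrays were above all 3 scrambled arrays by this measure, but the scrambled arrays define its zero. With subunits taken by structure, Mrps18a and Mrps30 counting as large and Mrps36 left out, the arrays overlapped, at 0.06, -0.00 and 0.07 with hairpin 1 and 0.04, 0.04 and -0.01 with hairpin 2. No p-value is given for these medians, because the genes are not replicates.

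**Figure D4:**
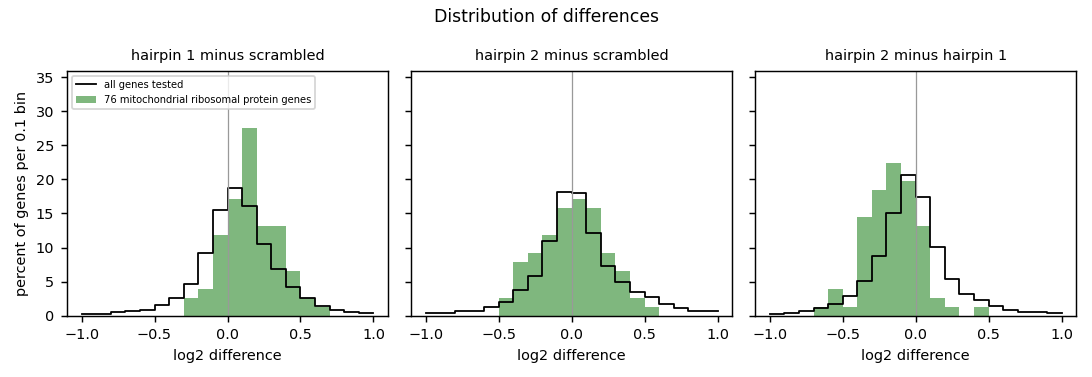
Share of genes in each 0.1-wide bin of log2 difference, for the 76 members (bars) and all 12735 genes tested (line), in 3 panels for hairpin 1 minus scrambled, hairpin 2 minus scrambled and hairpin 2 minus hairpin 1. Member medians are 0.16, 0.02 and -0.15, against 0.07, 0.02 and -0.04 for all genes.

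Probe sets of a gene did not always go together. The 76 members had 156 probe sets, 34 members had 1, and 63 further probe sets passed the filter. These had the sign of the one used for 43 of 63 with hairpin 1 and 44 of 63 in each of the other comparisons. Both passed in opposite directions for Mrpl13 and Mrpl50 with hairpin 1 and for Mrpl57 with hairpin 2. Mrpl13 gave 0.31 against -0.67 and Mrpl50 gave 0.44 against -0.93. These 3 genes are therefore uncertain in those comparisons.

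Other genes of mitochondrial translation were followed in lists, whose counts stand beside 23.7% of all genes higher and 9.23% lower with hairpin 1, and 21.5% and 13.3% with hairpin 2. With lists this small, shares near those say nothing particular about a list. Of 4 ribosomal proteins without an Mrp number, Gadd45gip1 (a large-subunit protein) rose with both hairpins, by 0.43 (adjusted p = 0.0137) and 0.47 (adjusted p = 0.00663), and Dap3, a GTP-binding small-subunit protein, had 0.22 with hairpin 2 (adjusted p = 0.0293). Both calls of Gadd45gip1 were lost with averaged probe sets (adjusted p = 0.0556 and 0.0864), its hairpin 1 call also without scrambled repeat 1 or hairpin 1 repeats 2 or 3, and that of Dap3 without scrambled repeats 1 or 2 or hairpin 2 repeats 1 or 2 (adjusted p up to 0.127). Of 10 translation factors tested of 11 measured, 4 rose with hairpin 1 and 1 fell with hairpin 2, with medians of 0.15 and 0.08. Tufm, the elongation factor that delivers transfer RNA, rose by 0.32 with hairpin 1 (adjusted p = 0.0013), and Mtfmt, which formylates the initiator transfer RNA, by 0.50 (adjusted p = 0.00125). The release factor gene Mtrf1l fell by 0.42 with hairpin 2 (adjusted p = 0.0019). Of 20 aminoacyl-tRNA synthetase genes and related enzymes tested of 21 measured, hairpin 1 gave 3 rises and 1 fall, and hairpin 2 gave 1 rise and 4 falls. Ears2 rose by 0.38 with hairpin 1 (adjusted p = 0.00424; 0.841 with averaged probe sets), while Gars, which charges glycine in cytosol and mitochondria, fell by 0.48 with hairpin 2 (adjusted p = 1.83e-06), and so did Qrsl1 (0.43) and Rars2 (0.39).

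Among 24 genes tested of 26 measured for assembly and ribosomal RNA modification, hairpin 1 gave 3 rises and 2 falls, and hairpin 2 gave 3 rises and 6 falls. Tfb1m, which dimethylates the small-subunit ribosomal RNA, had log2 signals of 10.03, 9.98 and 9.98 with scrambled, 10.14, 10.21 and 10.13 with hairpin 1, and 9.38, 9.40 and 9.51 with hairpin 2. Hairpin 2 was below both other groups of Tfb1m, with a fall of 0.57 (adjusted p = 3.21e-05) and a gap of 0.73 to hairpin 1 (adjusted p = 4.85e-06). Rpusd3, a pseudouridine synthase family member, rose 1.68-fold with hairpin 1 (adjusted p = 4.85e-06) and had 0.23 with hairpin 2 (adjusted p = 0.0388), lost without any scrambled array or hairpin 2 repeats 2 or 3 (adjusted p from 0.0652 to 0.15). Malsu1, a factor of large-subunit assembly, fell by 0.28 with hairpin 2 (adjusted p = 0.00131; 0.138 with averaged probe sets). Dhx30, an RNA helicase, fell by 0.25 and 0.40, but with its probe sets averaged the first turned to 0.02 (adjusted p = 0.864) and the second did not pass (adjusted p = 0.317).

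Of 19 genes of mitochondrial transcription and RNA stability, hairpin 1 gave 4 rises and 3 falls, and hairpin 2 gave 1 rise and 4 falls. Tfb2m, a transcription initiation factor, rose by 0.62 with hairpin 1 (adjusted p = 6.85e-05) and had 0.25 with hairpin 2 (adjusted p = 0.0351), lost without any scrambled array or hairpin 2 repeats 1 or 3. Polrmt, the mitochondrial RNA polymerase, fell by 0.27 (adjusted p = 0.0211) and 0.44 (adjusted p = 0.000571). Pnpt1, the polynucleotide phosphorylase, fell by 0.31 (adjusted p = 0.0279) and by 0.96 or 1.94-fold (adjusted p = 1.83e-06). The hairpin 1 calls were lost for Polrmt without scrambled repeats 1 or 2 or hairpin 1 repeat 2 (adjusted p up to 0.0939), and for Pnpt1 without any scrambled array or hairpin 1 repeats 1 or 3 (up to 0.0952). Of 10 regulators of mitochondrial biogenesis, hairpin 1 gave 4 rises and 1 fall, and hairpin 2 gave 1 of each. Esrra, which encodes ERR alpha, rose by 0.32 with hairpin 1 (adjusted p = 0.013; lost without scrambled repeat 1 at 0.0771 or hairpin 1 repeat 3 at 0.0841) and was 0.39 lower with hairpin 2 than with hairpin 1 (adjusted p = 0.00371). Yy1 fell by 0.37 with hairpin 1 (adjusted p = 0.00812). Pprc1 had 0.24 with hairpin 2 (adjusted p = 0.0473), lost without the low-signal filter (0.0704) and without any of 6 arrays (up to 0.173). Of 37 calls against scrambled among the list genes chosen by smallest p, 14 were kept under every alternative run.

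The ribosome's counterpart in the cytosol and the respiratory chain were counted in the same way, beside the same shares of all genes. Of 41 cytosolic ribosomal protein genes tested, hairpin 1 gave 13 rises and 3 falls (median 0.07), and hairpin 2 gave 6 rises and 3 falls (median 0.02). Of 77 respiratory chain and ATP synthase genes, hairpin 1 gave 38 rises and 2 falls (median 0.13), and hairpin 2 gave 13 rises and 12 falls (median 0.00). Hairpin 2 was below hairpin 1 for 5 of the 41 and 35 of the 77, beside 30 of the 76 mitochondrial ribosomal protein genes. The share of all genes tested was 17.4%. The differences between these lists were not tested.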

How the data were processed

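Total RNA for 9 arrays (3 per group) was amplified with a NuGEN kit and biotin-labelled, per the labels' protocols. The deposited values are log2 signals, 1 per probe set and array, which the authors made with RMA (background subtraction, equalized arrays, probe summary), per the submitters' processing notes; version and genome build are not given in the sources used here. Of 45101 probe sets, 34945 name 1 symbol. The brightest probe set stood for each of 18193 genes, and genes reaching the 30th percentile of means (5.72) were tested. A model with the 3 groups was fitted with limma 3.58.1 in R 4.3.3 (lmFit, eBayes with trend), adjusted by Benjamini-Hochberg over 12735 genes, two-sided, and tested on simulated data. A log2 difference is hairpin minus scrambled or hairpin 2 minus hairpin 1, and folds are larger over smaller. Named were the 6 highest and 6 lowest passing members per comparison, the 3 brightest and dimmest, members passing in opposite directions, and the 3 smallest p per list and hairpin; members named for their place in the ribosome, paralogy or disagreeing probe sets were added. Members and lists were chosen with earlier results of these data known. Alternatives covered scaling, filter, probe sets, array weights, trend, replicate block, subunit assignment and each array left out. The number of arrays limits the precision.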

Additional observations from a re-analysis of the deposited data

Results flagged for a closer look

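Of the 32 members that passed the direct limma test of hairpin 2 minus hairpin 1 (30 lower, 2 higher), the 2 higher and the 6 lowest are given here. Mrps12 was higher with hairpin 2 by 0.47 (adjusted p = 0.000923) and Mrpl57 by 0.28 (adjusted p = 0.021). The call of Mrpl57 was lost without hairpin 1 repeat 1 (adjusted p = 0.0514), hairpin 2 repeat 2 (0.10) or hairpin 2 repeat 3 (0.05), and with averaged probe sets (0.702). Lower with hairpin 2 were Mrpl45 at -0.62 (adjusted p = 1.03e-05), Mrpl40 at -0.57 (adjusted p = 0.000262), Mrpl11 at -0.54 (adjusted p = 4.47e-06) and Mrpl43 at -0.53 (adjusted p = 1.23e-05). Mrpl44 at -0.44 (adjusted p = 0.000294) and Mrps36 at -0.39 (adjusted p = 0.00107) were lower as well. In all 8 genes the 3 arrays of hairpin 2 lay on one side of the 3 arrays of hairpin 1. These genes were picked by the same test that is quoted here, so the values describe them and are no further support.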

How the results depend on the processing

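Members that fell with hairpin 1 numbered 4 with equal array medians, quantile normalization or array weights and 2 with the 50th percentile filter or the replicate block, against 1. Of all genes, 11.3%, 13.4%, 17.4%, 11.9% and 9.48% fell under these settings in the same order, against 9.23%. Array weights gave 50 rises with hairpin 1 against 26, where 41.1% of all genes rose against 23.7%. They gave 48 members lower with hairpin 2 than hairpin 1 against 30, where 29.9% of all genes were lower against 17.4%. The large minus small median with array weights was 0.0803 for hairpin 1 against 0.0426 and -0.0549 between hairpins against -0.0332. The hairpin 1 median was 0.0945 with quantile normalization and 0.0939 with averaged probe sets, against 0.16. Averaged probe sets also gave 8 rises with hairpin 2 against 15, where 20.0% of all genes rose against 21.5%. They gave 19 members lower between hairpins, where 15.8% of all genes were lower against 17.4%. Their large minus small medians were 0.0443 for hairpin 2 and -0.00713 between hairpins. With subunits taken by structure instead, the hairpin 2 value was 0.0202 against 0.0675. Averaging reversed Mrpl50 with hairpin 1 (-0.24, adjusted p = 0.0993), Mrpl57 with hairpin 2 (-0.0279, adjusted p = 0.82) and Dhx30 with hairpin 1 (0.0207, adjusted p = 0.864). The cause was not tested.

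Leaving out 1 array at a time gave, for hairpin 1, 18 to 47 rises (17.4% to 32.1% of all genes) and 1 to 3 falls (6.79% to 10.5%). Medians were 0.10 to 0.214 and large minus small 0.0166 to 0.0664. For hairpin 2 it gave 8 to 21 rises (17.7% to 24.3% of all genes) and 10 to 18 falls (10.3% to 15.3%). Medians were 0.00234 to 0.0266 and large minus small 0.0414 to 0.0750. Between hairpins it gave 1 to 2 higher and 17 to 45 lower, where 12.7% to 24.6% of all genes were lower. Medians were -0.222 to -0.0908 and large minus small -0.0543 to 0.00962.

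With the replicate block the counts of rises and falls were 29 and 2 for hairpin 1 and 15 and 15 for hairpin 2. Between hairpins they were 2 and 31. Deviations of same-numbered arrays correlated from -0.293 to 0.250 over 9 pairs. With so few arrays per group, these mixed values cannot decide whether the repeat numbers pair the arrays. Of 1173 values of the named members under the alternatives, 1099 kept their call and direction. Of the 74 others, 39 lost a call, 33 gained one and 2 changed direction. The total includes values that passed neither before nor after, and comparisons that do not use the array left out. It therefore does not measure how many calls held.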

Other observations

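Of the members, 20 share a start region with an opposite-strand neighbour within 300 bases in the RefSeq table of build GRCm38.p6, and in 16 of the 19 pairs the neighbour was tested. Next to members that moved, Twnk, the mitochondrial helicase gene whose start is 116 bases from that of Mrpl43, had differences of 0.03 with hairpin 1 and 0.01 with hairpin 2, and neither passed. Hira, 113 bases from Mrpl40, had 0.01 and -0.07, and Sars2, 147 bases from Mrps12, had 0.11 and -0.08, again with no call. Eme1, 48 bases from Mrpl27, had 0.05 (adjusted p = 0.711) and -0.0014 (adjusted p = 0.994). Fau, 192 bases from Mrpl49, fell by 0.14 with hairpin 2 (adjusted p = 0.00247), where Mrpl49 rose. In other pairs it was the neighbour that moved. Tcp1, a chaperonin subunit gene 238 bases from Mrpl18, rose by 0.24 with hairpin 1 (adjusted p = 0.00449) and fell by 0.42 with hairpin 2 (adjusted p = 2.63e-05), while Mrpl18 passed in no comparison. Ptcd2, 108 bases from Mrps27, fell by 0.45 with hairpin 2 (adjusted p = 0.000546), where Mrps27 did not pass.

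By promoter motif, 5 of the 12 members with the ETS core rose and 1 fell with hairpin 1, and 17 of the 55 others rose. With hairpin 2, 3 rose and 2 fell of the 12, against 12 and 12 of the 55. Of the 8 members with the YY1 core, 1 rose with hairpin 1, against 21 of the 59 others. With hairpin 2, 1 of the 8 fell, whereas 15 of the 59 rose and 13 fell. The shares of all genes tested were 23.7% higher and 9.23% lower with hairpin 1, and 21.5% and 13.3% with hairpin 2. Member shares near those say nothing particular about a motif. The differences between carriers and others were not tested.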
